A study of Mus musculus with 18 samples.

Results

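A set of 10 genes of the unfolded protein response and the integrated stress response was examined in mouse oocytes with and without LSM14B, an RNA-binding protein of ribonucleoprotein granules. They were chosen by name, with earlier results of these data known, out of 27874 genes in the deposited expression table. They comprise the endoplasmic reticulum (ER) chaperone genes Hspa5, Hsp90b1 and Calr and the sensor genes Ern1, Atf6 and Eif2ak3. The others are the transcription factor genes Xbp1, Atf4 and Ddit3 and the autophagy receptor gene Sqstm1. All 10 were found in the table, and 8 of them passed the filter used for testing, 1 FPKM in at least 3 libraries, as did 10320 genes in all. Eif2ak3 and Xbp1 did not pass it. FPKM is a level: sequenced fragments relative to the exon length of the gene and to the depth of the library.

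When unfolded proteins build up in the ER, 3 membrane sensors respond: IRE1 (encoded by Ern1), ATF6 and PERK (encoded by Eif2ak3). IRE1 splices the Xbp1 mRNA, ATF6 is cut to release a transcription factor, and both routes raise ER chaperone genes. PERK, like the other kinases of the integrated stress response, phosphorylates the initiation factor eIF2, which slows translation in general while the ATF4 protein is made more efficiently, and ATF4 in turn activates Ddit3, which encodes CHOP. A fully grown oocyte is transcriptionally silent through meiotic maturation, and its stored mRNAs are stabilised, polyadenylated or cleared.

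Each library held 15 oocytes from Lsm14b-/- (KO) or wild-type (WT) mice, collected at the germinal vesicle stage (GV, before meiosis resumes), at metaphase I (MI), or 14 h after hCG, which the submitters denote as MII. There were 3 replicates in each of the 6 groups KO GV, KO MI, KO MII, WT GV, WT MI and WT MII, so 18 libraries in all. The labels give no strain or age and name no conditional allele or Cre driver. Whether replicates came from separate mice is not stated, so p-values measure the spread between these libraries, which may be technical. The 14 h collection is defined by time, and the labels do not say how many KO oocytes had reached metaphase II.

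Lsm14b itself was at 0 to 0.234 FPKM in the KO libraries, against 2.04 to 11.2 FPKM in the WT libraries, with no overlap. Read counts recovered from the FPKM values put 14577081 to 17636696 assigned reads in a library. All 11 oocyte markers reached 1 FPKM in every group, with summed levels of 20525 to 23868 FPKM in KO and 19253 to 25666 FPKM in WT libraries at GV, 16649 to 18562 FPKM in KO and 11136 to 17454 FPKM in WT at MI, and 8574 to 10488 FPKM in KO and 5850 to 6560 FPKM in WT at MII, where the genotypes did not overlap. The 13 granulosa and cumulus markers summed to 9.80 to 12.4 FPKM in KO and 5.22 to 9.06 FPKM in WT libraries at GV, with no overlap, to 7.63 to 8.68 FPKM in KO and 6.63 to 10.7 FPKM in WT at MI, and to 6.34 to 9.28 FPKM in KO and 8.71 to 10.4 FPKM in WT at MII. Among them Fshr, the FSH receptor gene, reached 1 FPKM in the KO GV libraries alone (1.18, 1.95 and 1.30 FPKM), and Nr5a2 had 2.70, 4.80 and 2.08 FPKM in KO GV, against 1.07, 1.17 and 1.37 FPKM in WT GV libraries. Foxl2 and Amhr2 were at or near 0 throughout. Cyp19a1 lay at 1.89 to 6.09 FPKM. Its GV values went mostly the other way, at 1.99, 1.89 and 2.77 FPKM in KO and 3.13, 3.16 and 2.70 FPKM in WT libraries. Inha was highest in WT GV replicate 1 (2.19 FPKM), against 1.35 and 1.36 FPKM in KO GV replicates 1 and 3. The 6 theca, stroma and endothelium markers in the table summed to 2.76 to 4.81 FPKM in KO and 2.27 to 6.79 FPKM in WT libraries, and the 5 blood markers to 0.754 to 7.27 FPKM in KO and 0.507 to 29.8 FPKM in WT libraries. The groups did not overlap in the blood sum at GV (0.754 to 2.13 FPKM in KO and 0.507 to 0.628 FPKM in WT) or in the theca, stroma and endothelium sum at MII (4.47 to 4.71 FPKM in KO and 4.96 to 6.79 FPKM in WT). The part of these marker differences in the results at GV and MII was not tested. The top of the blood range was WT MI replicate 2, with Lyz2, a gene of myeloid cells, at 27.5 FPKM. KO GV replicates 2 and 3 stood apart from their group: the SD of their deviations from the group mean over genes was 0.522 and 0.476 on the log2 scale, against at most 0.327 in the other libraries. FPKM is relative to each library's own total, and cDNA was primed on poly(A), so fewer molecules per oocyte and shorter poly(A) tails cannot be told apart.

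The 10 genes spanned the expression range of these oocytes. In KO GV oocytes the order of mean levels ran from Atf4 (206 ± 35.1 FPKM; SD, n = 3 here and below) through Hspa5, Calr, Ddit3, Hsp90b1, Ern1, Sqstm1 and Atf6 to Eif2ak3 (0.576 ± 0.274 FPKM) and Xbp1 (0.234 ± 0.132 FPKM). In WT GV oocytes Atf4 was also first (92.0 ± 14.6 FPKM), but Hspa5 ranked 5 of 10, behind Calr, Ern1 and Hsp90b1. Most neighbours in these orders overlapped between libraries. The breaks without overlap were below Hsp90b1 in KO, below Ddit3 in WT, and below Atf6 in both. At MII the top of the order was Atf4 in KO (243 ± 86.8 FPKM) and Ern1 in WT (139 ± 8.28 FPKM). Among the tested genes the mean of Ern1 in WT MII oocytes lay at the 97.4th percentile, so this sensor transcript was among the abundant ones there.

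**Figure D1:**
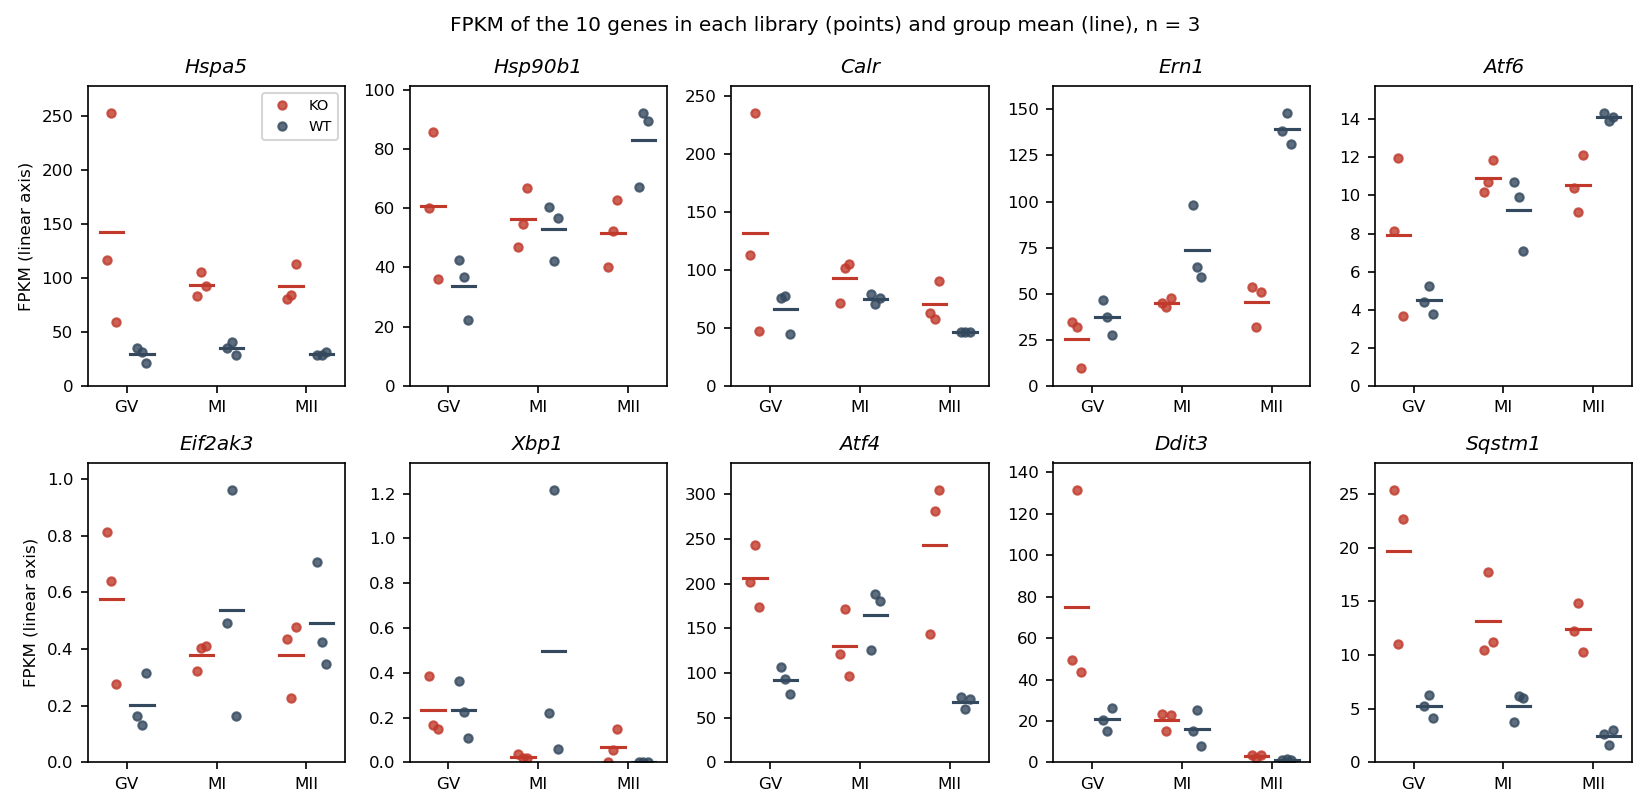
FPKM (linear axes, each from 0) of the 10 genes in each of 18 libraries, by stage, with KO points left of WT points and a line at each group mean (n = 3). Hspa5 and Sqstm1 lay higher in every KO library than in any WT library of the same stage, and Ern1 lay at 31.8 to 53.4 FPKM in KO MII against 131 to 148 FPKM in WT MII libraries.

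In KO against WT, 4 of the 8 tested members rose at GV (Hspa5, Atf4, Ddit3 and Sqstm1) and none fell, by limma with Benjamini-Hochberg adjustment at 0.05 over all tested genes. In such counts, rose and fell mean higher and lower in KO than in WT at the same stage, not a change between stages. The background at GV, at the adjusted threshold, was 13.3% of all tested genes higher and 7.49% lower. At an unadjusted p under 0.05, 6 members were higher and 0 lower, and voom on the recovered reads also called 4 and 0. Shares of all tested genes at an unadjusted p under 0.05 were not counted, here or below, so such counts have no background. The granulosa and cumulus marker sum was also higher in KO at GV (9.80 to 12.4 FPKM, against 5.22 to 9.06 FPKM in WT), and its part in these calls was not tested. At MI, 2 members rose (Hspa5 and Sqstm1) and 0 fell, against a background of 3.63% higher and 13.7% lower; the counts were again 2 and 0 without adjustment and by voom. At MII, 3 members rose (Hspa5, Atf4 and Sqstm1) and Ern1 fell, against a background of 14.9% higher and 13.8% lower. The oocyte marker sum was also higher in KO at MII (8574 to 10488 FPKM, against 5850 to 6560 FPKM in WT), and its part was not tested. Counted by libraries that did not overlap, 4 members lay above WT and 0 below at GV (17.8% and 13.3% of all tested genes did so), 2 above and Ern1 below at MI (11.2% and 24.5%), and 5 above and 3 below at MII (25.8% and 24.8%). All 8 tested members were thus apart between KO and WT at MII. Hspa5 and Sqstm1 were the members called higher at all 3 stages, which held for 1.71% of all tested genes. The members were chosen with earlier results of these data known, so their counts beside the background are descriptive. The median log2 difference of the 8 tested members was 0.97 at GV, 0.26 at MI and 0.65 at MII, and that of all tested genes 0.17, -0.13 and 0.01. With median-of-ratios scaling, which gave 1086 higher and 1442 lower genes at GV in place of 1373 and 773, and 874 and 1154 at MI in place of 375 and 1411, Hspa5 and Sqstm1 kept their calls at all 3 stages and Ddit3 at GV; Atf4 lost its call at GV, and Ern1 became lower there. The GV count rested partly on single libraries: it was 4 without KO GV replicate 2, 7 without KO GV replicate 3, with Hsp90b1, Calr and Atf6 added, 3 without WT GV replicate 3, and 1 (Sqstm1) when only the GV libraries were fitted.

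**Figure D2:**
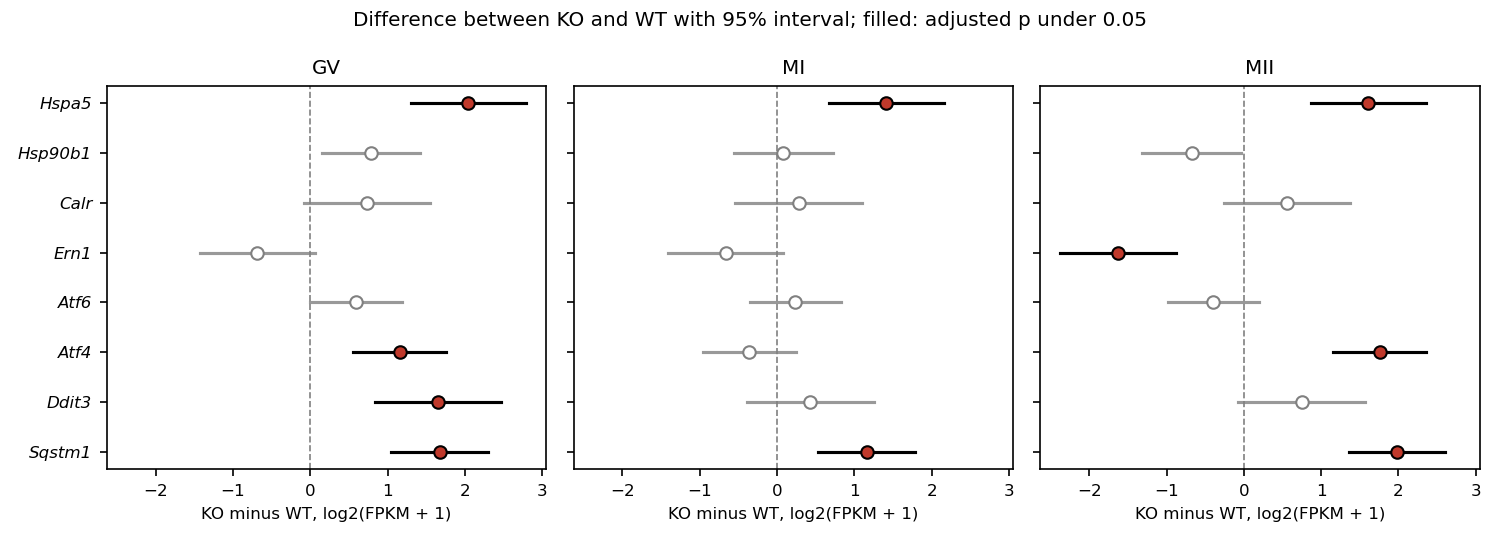
Difference KO minus WT in log2(FPKM + 1) with its 95% interval (horizontal axis) for the 8 tested genes at each stage; filled points have an adjusted p under 0.05. Hspa5 and Sqstm1 are filled at all 3 stages, Atf4 at GV and MII, Ddit3 at GV and Ern1, on the left of zero, at MII.

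Among the ER chaperones, the transcript of Hspa5 was higher in KO than in WT oocytes at every stage. Those of Hsp90b1 and Calr did not pass the test at any in the fit of all 18 libraries. Hspa5 (ENSMUSG00000026864, chr2:34771970-34777547, mm10) encodes BiP, the Hsp70 chaperone of the ER lumen, which also holds the sensors inactive. At GV it had 117, 252 and 59.3 FPKM in the KO libraries, against 35.0, 31.5 and 20.7 FPKM in the WT libraries. The MI values were 83.3, 106 and 92.3 FPKM in KO and 35.5, 40.2 and 28.5 FPKM in WT libraries. The MII values were 80.6, 84.2 and 113 FPKM in KO and 28.6, 28.2 and 31.3 FPKM in WT libraries. The groups did not overlap at any stage, and the widest spread was among the KO GV libraries. The log2(FPKM + 1) difference was 2.05 ± 0.36 (SE) at GV with an adjusted p of 0.000928, 1.41 ± 0.36 at MI with 0.0102, and 1.61 ± 0.36 at MII with 0.00226. At GV, MI and MII this difference was above that of 99.8%, 99.5% and 96.5% of all tested genes. The mean level at GV, MI and MII was 143, 93.8 and 92.5 FPKM in KO and 29.1, 34.7 and 29.3 FPKM in WT oocytes. The call at GV was lost when only the GV libraries were fitted (adjusted p = 0.0676) and held in the other 9 settings and without any 1 library.

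Hsp90b1 (ENSMUSG00000020048, chr10:86690209-86705509) encodes GRP94, the Hsp90 chaperone of the ER. At GV it had 60.002, 85.7 and 35.9 FPKM in KO and 42.4, 36.9 and 22.1 FPKM in WT libraries. At MI the values were 46.9, 54.7 and 66.9 FPKM in KO and 60.4, 42.2 and 56.6 FPKM in WT libraries. At MII they were 40.2, 52.4 and 62.6 FPKM in KO and 67.2, 92.0 and 89.3 FPKM in WT libraries. The KO libraries thus lay mostly above WT at GV, among WT at MI and below WT at MII. None of these passed the test: the log2 difference was 0.79 (adjusted p = 0.0705) at GV, 0.08 (0.889) at MI and -0.68 (0.106) at MII. With only the MII libraries fitted, Hsp90b1 was called lower there (adjusted p = 0.0409), and without KO GV replicate 3 it was called higher at GV (0.00675). In WT oocytes Hsp90b1 rose from GV to MII, by 1.30 ± 0.31 on the log2 scale (adjusted p = 0.00145), and in KO oocytes its change was -0.16 ± 0.31 (adjusted p = 0.715). The difference between the genotypes in that change was -1.46 ± 0.43, with an adjusted p of 0.0521 that missed the threshold; it passed in 5 of 10 other settings, voom among them, and without KO GV replicate 3 or KO MII replicate 3. Of its exon bases 15.7% are shared with other annotated genes; of these, Gm15344 was at 0.322 FPKM or less in every library.

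Calr (ENSMUSG00000003814, chr8:84841850-84846934) encodes calreticulin, the calcium-binding lectin chaperone of the ER. Its GV values were 113, 235 and 46.9 FPKM in KO and 76.1, 77.4 and 44.8 FPKM in WT libraries. At MI it had 71.3, 101 and 105 FPKM in KO and 79.3, 70.6 and 75.6 FPKM in WT libraries. Its MII values were 63.1, 57.5 and 90.3 FPKM in KO, against 46.6, 46.5 and 46.6 FPKM in WT libraries. The groups overlapped at GV and MI, while every KO MII library lay above the WT MII libraries, which were nearly identical. The log2 difference was 0.74 (adjusted p = 0.168) at GV, 0.28 (0.679) at MI and 0.56 (0.31) at MII, with a 95% interval at MII of -0.26 to 1.37. Without KO GV replicate 3, Calr was called higher at GV (adjusted p = 0.00293).

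Within single libraries the ratio of Hspa5 to either other chaperone transcript separated KO from WT. The ratio of Hspa5 to Hsp90b1 in FPKM was 2.18 ± 0.677 in KO and 0.873 ± 0.0592 in WT at GV, 1.70 ± 0.285 in KO and 0.682 ± 0.239 in WT at MI, and 1.80 ± 0.197 in KO and 0.361 ± 0.0608 in WT at MII. No KO library overlapped a WT library at any stage. The ratio of Hspa5 to Calr was 1.12 ± 0.123 in KO and 0.444 ± 0.0319 in WT at GV, 1.03 ± 0.145 in KO and 0.465 ± 0.0977 in WT at MI, and 1.33 ± 0.119 in KO and 0.630 ± 0.0352 in WT at MII, again with no overlap. By contrast the ratio of Calr to Hsp90b1 was 1.98 ± 0.720 in KO and 1.97 ± 0.159 in WT at GV, with overlap, and separated at MII alone, at 1.37 ± 0.244 in KO and 0.573 ± 0.104 in WT. Each ratio without overlap had a two-sided exact permutation p of 0.1, the smallest that 3 libraries against 3 can give, unadjusted over the 15 ratio tests made. Such a ratio is free of the scaling between libraries.

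**Figure D3:**
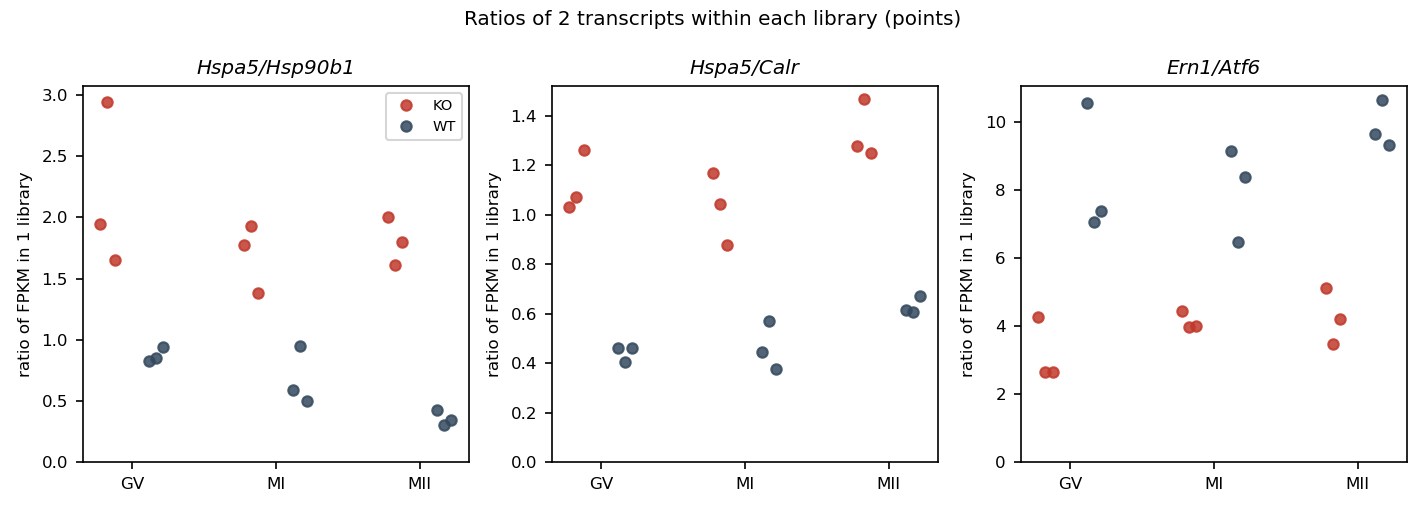
Ratio of the FPKM of 2 transcripts within each library (linear axes from 0), by stage, KO points left of WT points, n = 3. Hspa5/Hsp90b1 and Hspa5/Calr lay higher and Ern1/Atf6 lower in every KO library than in any WT library of the stage.

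The promoter windows of the 3 chaperone genes are shown because they share exact matches to an element whose exact matches are rare elsewhere. Of their transcripts, that of Hspa5 alone passed the test between KO and WT oocytes in the fit of all 18 libraries. Without KO GV replicate 3, Hsp90b1 and Calr were also called higher at GV (adjusted p of 0.00675 and 0.00293), so the split at GV depends on that library. The ER stress response element (ERSE), CCAAT and CCACG with 9 bases between them, was defined on promoters of ER chaperone genes. Windows from 250 bases before to 50 bases after the start (RefSeq, build GRCm38.p6) were found for 9 of the 10 members and searched on both strands. Capitals mark the fixed bases of each ERSE match and, in Calr, also of 2 matches to the antioxidant response element.
Hspa5 promoter, chr2:34771840-34772139, plus strand: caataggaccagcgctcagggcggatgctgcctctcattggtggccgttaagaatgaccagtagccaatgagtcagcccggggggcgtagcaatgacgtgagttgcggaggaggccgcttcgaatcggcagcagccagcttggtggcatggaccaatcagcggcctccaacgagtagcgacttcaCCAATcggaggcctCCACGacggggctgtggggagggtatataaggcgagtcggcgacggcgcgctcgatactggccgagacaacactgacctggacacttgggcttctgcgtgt
Hsp90b1 promoter, chr10:86705395-86705694, minus strand: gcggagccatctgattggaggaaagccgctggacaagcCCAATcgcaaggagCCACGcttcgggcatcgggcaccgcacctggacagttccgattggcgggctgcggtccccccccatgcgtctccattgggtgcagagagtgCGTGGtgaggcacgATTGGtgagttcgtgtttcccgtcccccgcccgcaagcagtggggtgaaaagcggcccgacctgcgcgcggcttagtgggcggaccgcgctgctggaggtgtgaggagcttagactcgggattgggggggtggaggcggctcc
Calr promoter, chr8:84846882-84847181, minus strand: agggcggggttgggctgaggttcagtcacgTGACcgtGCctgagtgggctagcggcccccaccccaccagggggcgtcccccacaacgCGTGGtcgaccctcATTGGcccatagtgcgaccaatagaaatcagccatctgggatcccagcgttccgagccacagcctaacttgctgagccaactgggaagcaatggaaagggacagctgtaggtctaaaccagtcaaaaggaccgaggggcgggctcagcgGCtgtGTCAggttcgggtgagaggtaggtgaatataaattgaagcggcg

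An exact match to ERSE was present in 39 of 32851 mouse promoter windows (0.119%), and among the 9 members with a window in these 3 alone. Because ERSE was defined on promoters of ER chaperone genes, its presence in these 3 beside that share is no test. Copies with a changed base were not searched for, so their absence from the other members is not shown. Hspa5 held 1 match, whose first base lay at position -65 from the start, Hsp90b1 held 2, at -212 and -107, and Calr held 1, at -162. The related element ERSE-II (ATTGG and CCACG with 1 base between them; 0.0365% of windows), the UPRE core bound by XBP1 (TGACGTGG; 0.676%) and the C/EBP-ATF element (TGATGNAA; 3.97%) had no match in the members' windows. The antioxidant response element (TGACNNNGC; 12.4% of windows) matched 2 times in Calr and 2 times in Ern1. No match overlapped another. These are letter matches in short windows and no measurement of binding.

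**Figure D4:**
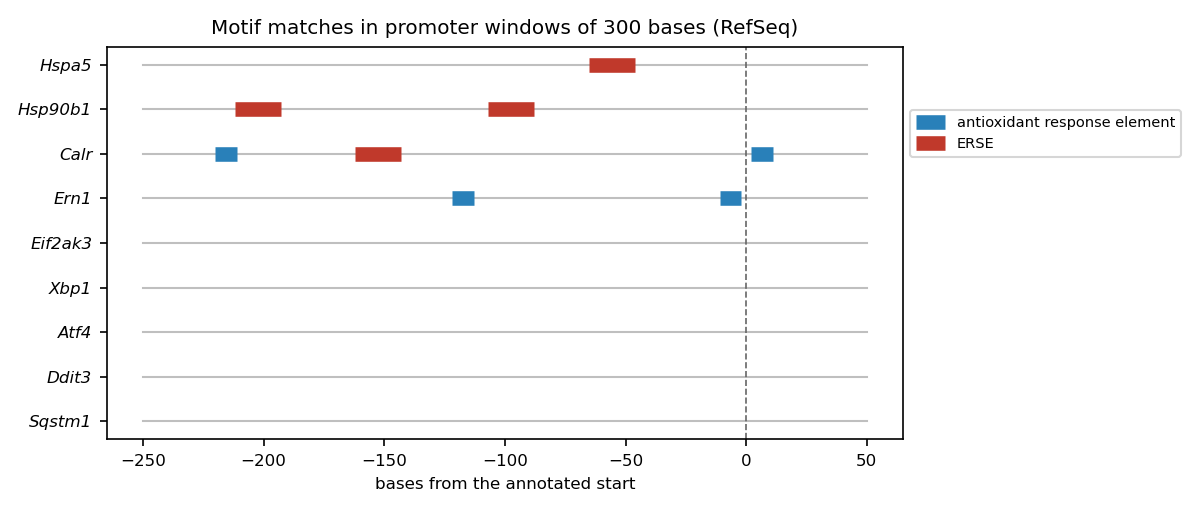
Matches to ERSE (red) and to the antioxidant response element (blue) in the promoter windows of 9 members, drawn to scale in bases from the annotated start (dashed line). ERSE lies in the windows of Hspa5, Hsp90b1 and Calr, and no match was found in the other members below Ern1.

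Among the sensors, Ern1 was lower in KO than in WT oocytes at MII, Atf6 did not pass that test at any stage, and Eif2ak3 was close to undetected. Ern1 (ENSMUSG00000020715, chr11:106394650-106487852) encodes IRE1 alpha, a kinase and ribonuclease. At GV it had 34.8, 31.7 and 9.81 FPKM in KO and 46.7, 37.2 and 27.8 FPKM in WT libraries. At MI it had 45.1, 42.6 and 47.4 FPKM in KO and 97.9, 64.3 and 59.1 FPKM in WT libraries. At MII it had 53.4, 31.8 and 51.0 FPKM in KO, against 138, 148 and 131 FPKM in WT libraries. The groups overlapped at GV and were apart at MI and MII. The log2 difference was -0.68 (adjusted p = 0.163) at GV, -0.67 (0.216) at MI and -1.63 ± 0.36 (0.00203) at MII, where the KO mean was 0.326 of the WT mean. From GV to MII, Ern1 rose by 0.96 ± 0.36 in KO (adjusted p = 0.0411) and by 1.90 ± 0.36 in WT oocytes (0.000213) on the log2 scale. The difference between these changes, -0.94 ± 0.50, did not pass the test (adjusted p = 0.223). Without KO GV replicate 3 that difference passed (adjusted p = 0.0087). The rise in KO was called in 13 of 18 fits without 1 library; those without KO GV replicate 3, KO MII replicate 1 or 3, or WT MII replicate 1 or 3 lost it, as did the fits with no filter and with only the compared groups.

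Atf6 (ENSMUSG00000026663, chr1:170704674-170867771) encodes the ER membrane-bound transcription factor. Its GV values were 8.14, 11.96 and 3.69 FPKM in KO and 4.42, 5.27 and 3.78 FPKM in WT libraries. Its MI values were 10.2, 10.7 and 11.9 FPKM in KO and 10.7, 9.93 and 7.06 FPKM in WT libraries. Its MII values were 10.4, 9.15 and 12.1 FPKM in KO and 14.3, 13.9 and 14.1 FPKM in WT libraries. KO GV replicate 3 lay below all WT GV libraries and the other KO GV libraries above them, the genotypes overlapped at MI, and all KO MII libraries were below WT. The log2 difference was 0.59 (adjusted p = 0.13) at GV, 0.23 (0.619) at MI and -0.39 (0.324) at MII. From GV to MII, Atf6 rose in WT by 1.47 ± 0.28 (adjusted p = 0.000267); its change in KO was 0.48 ± 0.28 (0.19). The difference between the genotypes in that change was -0.99 ± 0.40 (adjusted p = 0.12), and it passed without KO GV replicate 3 (0.00593). The ratio of Ern1 to Atf6 within a library was 3.20 ± 0.937 in KO and 8.33 ± 1.94 in WT at GV, 4.13 ± 0.260 in KO and 7.99 ± 1.37 in WT at MI, and 4.27 ± 0.833 in KO and 9.87 ± 0.694 in WT at MII. No KO library overlapped a WT library, with an exact permutation p of 0.1 at each stage, the smallest possible.

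Eif2ak3 (ENSMUSG00000031668, chr6:70844515-70905245), which encodes PERK, lay between 0.132 and 0.962 FPKM in all 18 libraries, or 13 to 88 recovered reads. At GV it had 0.812, 0.640 and 0.276 FPKM in KO and 0.164, 0.132 and 0.315 FPKM in WT libraries, with overlap. Its mean was 0.380 ± 0.0499 FPKM in KO and 0.539 ± 0.402 FPKM in WT at MI, and 0.380 ± 0.135 FPKM in KO and 0.493 ± 0.191 FPKM in WT at MII. Xbp1 (ENSMUSG00000020484, chr11:5520659-5525893), the IRE1 substrate, lay between 0 and 1.22 FPKM. Its mean was 0.234 ± 0.132 FPKM in KO and 0.233 ± 0.128 FPKM in WT at GV, and 0.0247 ± 0.0110 FPKM in KO and 0.499 ± 0.627 FPKM in WT at MI. At MII it had 0, 0.0571 and 0.151 FPKM in KO libraries and was listed at 0 in all 3 WT libraries. The WT MI mean came largely from replicate 2, at 1.22 FPKM (60 reads), the library with Lyz2 at 27.5 FPKM; that library also held the highest Eif2ak3 value, 0.962 FPKM (88 reads). The part of cells other than oocytes in these 2 values was not tested. With no filter, neither gene passed in KO against WT: adjusted p was 0.243, 0.836 and 0.974 for Eif2ak3 and 1, 0.192 and 1 for Xbp1 at GV, MI and MII. Gene-level FPKM does not separate spliced from unspliced Xbp1.

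Atf4 and Ddit3, the transcription factors of the integrated stress response, were both higher in KO than in WT oocytes at GV, and Atf4 also at MII. Atf4 (ENSMUSG00000042406, chr15:80255184-80257541) had 202, 243 and 174 FPKM in KO and 106, 92.9 and 77.0 FPKM in WT libraries at GV. Levels at MI were 122, 171 and 96.9 FPKM in KO and 126, 188 and 180 FPKM in WT libraries. Levels at MII were 144, 281 and 305 FPKM in KO and 73.3, 59.98 and 70.8 FPKM in WT libraries. All KO libraries were above WT at GV and MII, and the genotypes overlapped at MI. The log2 difference was 1.16 ± 0.29 at GV (adjusted p = 0.0104), -0.36 ± 0.29 at MI (0.431) and 1.75 ± 0.29 at MII (0.000158). The GV call was lost without WT GV replicate 3 (adjusted p = 0.0538), with median-of-ratios scaling and with only the GV libraries fitted, with adjusted p up to 0.0562. From GV to MI the level changed by -0.69 ± 0.29 in KO (adjusted p = 0.126) and by 0.82 ± 0.29 in WT oocytes (0.0832). The difference between these, -1.51 ± 0.41, had an unadjusted p of 0.00143 and an adjusted p of 0.151, and did not pass. It passed without KO GV replicate 3 (adjusted p = 0.0357).

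Ddit3 (ENSMUSG00000025408, chr10:127290774-127296288), which encodes CHOP, had 49.3, 132 and 43.6 FPKM in KO and 20.7, 15.3 and 26.2 FPKM in WT libraries at GV. At MI it had 23.1, 14.98 and 22.8 FPKM in KO and 15.05, 25.1 and 7.93 FPKM in WT libraries. At MII it had 3.53, 1.91 and 3.82 FPKM in KO and 1.35, 1.53 and 1.26 FPKM in WT libraries. The genotypes were apart at GV and MII and overlapped at MI. The log2 difference was 1.65 ± 0.39 at GV (adjusted p = 0.00813), 0.43 (0.497) at MI and 0.75 (0.164) at MII; the GV call was lost when only the GV libraries were fitted (adjusted p = 0.0799), and with only the MII libraries fitted Ddit3 was called higher at MII (0.0327). Ddit3 fell steeply during maturation in both genotypes: from GV to MII it fell by 4.06 ± 0.39 in KO (adjusted p = 1.62e-07) and by 3.16 ± 0.39 in WT oocytes (2.40e-06) on the log2(FPKM + 1) scale, where the added 1 shrinks changes at low levels. In FPKM the MII mean was 0.0413 of the GV mean in KO and 0.0665 in WT. From GV to MI, Ddit3 fell by 1.67 ± 0.39 in KO (adjusted p = 0.00740, and 0.0684 when only the compared groups were fitted), and its change in WT was -0.45 ± 0.39 (0.458); the difference between the genotypes did not pass (-1.22 ± 0.55, adjusted p = 0.357). The ratio of Ddit3 to Atf4 was 0.345 ± 0.169 in KO and 0.233 ± 0.0942 in WT at GV, and 0.0146 ± 0.00905 in KO and 0.0205 ± 0.00426 in WT at MII, overlapping at each stage. Of its exon bases 10.9% are shared with other annotated genes, among them Mars, which lay between 0.234 and 3.72 FPKM.

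Sqstm1 (ENSMUSG00000015837, chr11:50199366-50210827) encodes p62, a receptor that links ubiquitinated cargo to autophagosomes and whose gene is a target of NRF2. Its GV values were 25.4, 11.1 and 22.7 FPKM in KO and 5.27, 6.23 and 4.10 FPKM in WT libraries. Its MI values were 10.5, 17.8 and 11.2 FPKM in KO and 3.78, 6.15 and 5.96 FPKM in WT libraries. Its MII values were 12.2, 14.8 and 10.3 FPKM in KO and 2.67, 1.61 and 2.99 FPKM in WT libraries. Every KO library was above every WT library of its stage. The log2 difference was 1.67 ± 0.30 at GV (adjusted p = 0.00114), 1.16 ± 0.30 at MI (0.0117) and 1.98 ± 0.30 at MII (7.22e-05), and the MII mean in KO was 5.13 times the WT mean. The MI call was lost without KO MI replicate 2 or WT MI replicate 1 (adjusted p up to 0.065). From GV to MII, Sqstm1 fell by 0.87 ± 0.30 in WT oocytes (adjusted p = 0.0189), and its change in KO was -0.56 ± 0.30 (0.152). The WT fall lost its call with a pseudocount of 5, with no filter, with quantile normalization, and without WT GV replicate 2 or WT MII replicate 2, with adjusted p up to 0.0877. Of its exon bases 17.3% are shared with Mrnip, whose mean was lower in KO: 12.01 FPKM in KO and 20.3 FPKM in WT at GV, 3.13 FPKM in KO and 10.3 FPKM in WT at MI, and 2.02 FPKM in KO and 3.03 FPKM in WT at MII.

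Across maturation within a genotype, the members did not move as a block. From GV to MI, 1 member was called in KO (Ddit3, lower; background 10.4% lower) and 0 in WT (background 4.82%). In WT, 4 members were higher at an unadjusted p under 0.05 (Hsp90b1, Ern1, Atf6 and Atf4), and voom also called 0. The share of all tested genes at that unadjusted threshold was not counted. From GV to MII, 1 member rose and 1 fell in KO (Ern1 and Ddit3; background 11.9% higher and 25.4% lower), and 3 rose and 2 fell in WT (Hsp90b1, Ern1 and Atf6; Ddit3 and Sqstm1; background 28.9% higher and 28.8% lower). The KO and WT differences in the change passed limma's test for 0 members to MI (background 0.0775%) and 0 members to MII (background 5.61%). Of these, 2 members each were lower at an unadjusted p under 0.05, Atf4 and Ddit3 to MI, Hsp90b1 and Atf6 to MII, and voom called 0 and 1. Without KO GV replicate 3 the difference passed for Atf4 to MI and for Hsp90b1, Ern1 and Atf6 to MII. In that fit 719 and 2823 of all 10320 tested genes passed to MI and to MII. The WT increase of Hsp90b1, Ern1 and Atf6 by MII and the lower KO means of all 3 there (51.7 ± 11.2, 45.4 ± 11.9 and 10.6 ± 1.497 FPKM, against 82.8 ± 13.6, 139 ± 8.28 and 14.1 ± 0.213 FPKM in WT) stood side by side. These comparisons share libraries and are not independent of each other.

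Other genes of the pathways were counted in 5 lists, members left out. A list gene said to rise or fall at a stage was higher or lower in KO than in WT at that stage. These lists, too, were chosen with earlier results of these data known. They share genes, so their counts are not separate. Dnajc3 counts in the lists of ER folding and of eIF2, and Slc7a11 in those of ATF4 or CHOP targets and of NRF2. Each list's counts at an adjusted p under 0.05 stand beside the background of all tested genes. This was 13.3% higher and 7.49% lower at GV, 3.63% and 13.7% at MI, and 14.9% and 13.8% at MII. No such background was counted for an unadjusted p. Of 38 tested genes of ER folding and ER-associated degradation, 5 (13.2%) rose and 3 (7.89%) fell in KO at GV, 0 rose and 2 (5.26%) fell at MI, and 4 rose and 4 fell at MII (10.5% each). The GV shares were near the background. At MI, 4 were higher at an unadjusted p under 0.05, and voom called 0 higher. The list's median log2 difference was 0.38, -0.04 and -0.05 at GV, MI and MII, beside 0.17, -0.13 and 0.01 over all tested genes. Vcp, the ATPase that extracts proteins from the ER membrane, had 33.7, 71.8 and 14.1 FPKM in KO and 9.22, 10.9 and 5.53 FPKM in WT libraries at GV (adjusted p = 0.00333). Selenos, a selenoprotein of the retrotranslocation complex, averaged 2.28 ± 0.217 FPKM in KO and 0.164 ± 0.0354 FPKM in WT at GV (0.00231). At MII, Spcs1, a signal peptidase subunit that shares 16.3% of its exon bases with Glt8d1, averaged 19.6 ± 6.37 FPKM in KO and 2.54 ± 0.697 FPKM in WT (2.28e-06), and Derl3, a derlin of ER-associated degradation, 7.71 ± 0.346 FPKM in KO and 1.21 ± 0.172 FPKM in WT (2.12e-05). Both had higher means at GV, 59.4 FPKM in KO and 50.5 FPKM in WT for Spcs1, and 12.8 and 20.8 FPKM for Derl3. The genotype difference in the change to MII passed for Derl3, Spcs1 and Ssr1 (7.89% of the list, beside 5.61% of all tested genes). Dnajc3, which encodes the BiP co-chaperone p58IPK, was lower in KO than in WT at all 3 stages. At MII it had 83.6, 84.2 and 89.4 FPKM in KO and 226, 229 and 246 FPKM in WT libraries (0.000254). At GV its groups overlapped, at 44.9, 59.1 and 31.7 FPKM in KO and 84.9, 58.7 and 78.9 FPKM in WT libraries. The GV call of Dnajc3 (0.0428) was lost in 14 of 28 alternatives. Ssr3, a subunit of the translocon-associated complex, likewise fell at all 3 stages, as 3.39% of all tested genes did (11.02 ± 2.06 FPKM in KO and 26.2 ± 0.820 FPKM in WT at MII, 0.000352), and Ssr1 of the same complex at GV (5.38 ± 4.72 FPKM in KO and 20.1 ± 4.90 FPKM in WT, 0.00193).

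Of 15 further tested genes of sensing and processing in the unfolded protein response, 2 (13.3%) rose and 0 fell at GV, 0 rose and 0 fell at MI, and 3 rose and 2 (13.3%) fell at MII. At an unadjusted p under 0.05 the counts were 4 and 0, 0 and 1, and 3 and 3, and voom called 2 and 0, 0 and 0, and 2 and 2. Nfya, a subunit of the CCAAT-binding factor NF-Y, averaged 12.2 ± 4.73 FPKM in KO and 5.51 ± 0.335 FPKM in WT at GV (adjusted p = 0.0178), and Map3k5, the kinase ASK1, 13.9 ± 5.80 FPKM in KO and 7.02 ± 1.25 FPKM in WT (0.0428). At MII the inhibitor of IRE1 signalling Tmbim6 averaged 79.5 ± 6.03 FPKM in KO and 49.7 ± 9.59 FPKM in WT (0.0110), and the ER protein gene Wfs1 2.70 ± 0.931 FPKM in KO and 0.854 ± 0.305 FPKM in WT (0.0313). Fkbp14, a prolyl isomerase of the ER, and Mbtps2, which encodes the site-2 protease that cuts ATF6, fell at MII. Fkbp14 averaged 2.05 ± 0.342 FPKM in KO and 3.91 ± 0.269 FPKM in WT (0.0271), and Mbtps2 1.73 ± 0.727 FPKM in KO and 3.34 ± 0.434 FPKM in WT (0.0392), with 28.4% of its exon bases shared with Yy2.

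Of 19 tested genes of the eIF2 kinases, eIF2 and its exchange factor eIF2B, 2 (10.5%) rose and 3 (15.8%) fell at GV, 1 (5.26%) rose and 6 (31.6%) fell at MI, and 2 (10.5%) rose and 3 (15.8%) fell at MII. The list's median log2 difference was 0.05, -0.63 and -0.28 at GV, MI and MII, beside 0.17, -0.13 and 0.01 over all tested genes. The eIF2B subunit genes Eif2b4 and Eif2b2 fell at MI: Eif2b4 averaged 1.52 ± 0.307 FPKM in KO and 6.23 ± 1.80 FPKM in WT (adjusted p = 0.000172), and Eif2b2 3.76 ± 1.31 FPKM in KO and 13.9 ± 8.98 FPKM in WT (0.00213). Eif2b1 fell at GV (86.5 ± 63.0 FPKM in KO and 201 ± 14.0 FPKM in WT, 0.0159) and at MI (93.1 ± 35.9 FPKM in KO and 222 ± 40.4 FPKM in WT, 0.0287), and Eif2b3 at GV (8.20 ± 1.26 FPKM in KO and 14.6 ± 0.310 FPKM in WT, 0.0418). Eif2b5, for the catalytic subunit, rose at GV (4.16 ± 2.52 FPKM in KO and 1.25 ± 0.302 FPKM in WT, 0.0141). Nck2, which encodes an adaptor protein, rose at all 3 stages from low levels, for example 1.099 ± 0.397 FPKM in KO and 0.173 ± 0.106 FPKM in WT at MI (0.00515). Ppp1r15a encodes GADD34, the stress-induced subunit of an eIF2 phosphatase and a known target of ATF4 and CHOP. It had 7.70, 6.76 and 6.96 FPKM in KO, against 26.8, 21.5 and 23.5 FPKM in WT libraries at MII (0.000139), where Atf4 was higher in KO. Eif2s3x, for the gamma subunit of eIF2, rose at MII (10.6 ± 0.965 FPKM in KO and 3.33 ± 0.784 FPKM in WT, 0.000445).

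Of 20 tested genes known as targets of ATF4 or CHOP, 1 rose and 1 fell at GV, 0 rose and 3 fell at MI, and 3 rose and 6 fell at MII (30.0% of the list, beside 13.8% of all tested genes). At MI, 2 were higher at an unadjusted p under 0.05, and voom called 0 higher. The list's median was 0.30, -0.17 and -0.06 at GV, MI and MII. Of the genes for tRNA synthetases, Aars rose at GV (7.28 ± 3.53 FPKM in KO and 2.52 ± 0.892 FPKM in WT, adjusted p = 0.00831) and, at MII, Aars (2.19 ± 0.524 FPKM in KO and 0.869 ± 0.126 FPKM in WT, 0.0491), Gars (21.8 ± 2.70 FPKM in KO and 8.93 ± 1.58 FPKM in WT, 0.000972) and Nars (37.5 ± 7.50 FPKM in KO and 19.7 ± 3.81 FPKM in WT, 0.00530). At MII the synthetase gene Eprs fell (log2 difference -0.67, adjusted p = 0.0159), and Mars (0.33, 0.334), Wars (0.60, 0.180) and Sars (-0.62, 0.104) did not pass; these 4 values were picked out after they were seen. Aars shares 15.1% of its exon bases with other annotated genes. Sars fell at MI (3.38 ± 0.302 FPKM in KO and 7.77 ± 3.17 FPKM in WT, 0.0255). Cth, for cystathionine gamma-lyase of cysteine synthesis, fell at all 3 stages. At GV it had 0.450, 1.26 and 1.99 FPKM in KO and 2.55, 2.34 and 10.9 FPKM in WT libraries. That call (0.0419) was lost in 10 of 28 alternatives. At MII it had 3.94, 2.55 and 1.84 FPKM in KO and 23.2, 26.5 and 14.9 FPKM in WT libraries (0.000199). Gdf15, a secreted stress factor, was near 0 in KO and fell at MI (0.0742 ± 0.0789 FPKM in KO and 1.56 ± 1.06 FPKM in WT, 0.00151) and MII (0.0221 ± 0.0192 FPKM in KO and 1.12 ± 0.236 FPKM in WT, 0.00163).

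Of 26 tested genes of autophagy and of the NRF2 pathway, 5 (19.2%) rose and 0 fell at GV, 2 (7.69%) rose and 3 (11.5%) fell at MI, and 8 (30.8%) rose and 2 (7.69%) fell at MII. At GV, 13 were higher and 0 lower at an unadjusted p under 0.05, for which no background was counted, and voom called 6 and 0. The list's median was 0.48, 0.07 and 0.17 at GV, MI and MII. Map1lc3a, which encodes an LC3 protein of the autophagosome membrane, had 36.7, 49.7 and 60.3 FPKM in KO and 3.72, 3.29 and 4.37 FPKM in WT libraries at MII, a log2 difference of 3.36 ± 0.34 (adjusted p = 1.11e-06). Its mean at GV, MI and MII was 83.3, 73.1 and 48.9 FPKM in KO and 27.1, 44.1 and 3.79 FPKM in WT. In WT, Map1lc3a, Lamp1 and Gabarapl2 were called lower at MII than at GV. In KO, Atg12 and Atg14 were called higher at MII than at GV. The genotype difference in the change to MII passed for Lamp1 and Map1lc3a (7.69% of the list, beside 5.61% of all tested genes). Calcoco1, an autophagy receptor for the ER, rose at all 3 stages, to 12.4 ± 4.05 FPKM in KO against 4.25 ± 0.455 FPKM in WT at MI (0.000528). Gabarap (3.599 ± 1.86 FPKM in KO and 0.935 ± 0.0870 FPKM in WT, 0.00442) and the receptor gene Optn (17.2 ± 7.66 FPKM in KO and 6.71 ± 0.448 FPKM in WT, 0.00717) rose at GV. Lamp1, of the lysosome membrane, rose at MII (164 ± 17.7 FPKM in KO and 60.8 ± 7.70 FPKM in WT, 0.000159), as did Atg14 (24.2 ± 4.96 FPKM in KO and 11.1 ± 2.21 FPKM in WT, 0.00320) and Gabarapl2 (13.3 ± 2.26 FPKM in KO and 7.09 ± 1.47 FPKM in WT, 0.00773). Among the NRF2 targets, Gclm rose at MI (13.6 ± 5.77 FPKM in KO and 5.34 ± 1.20 FPKM in WT, 0.0358). Other genes of the list, named after their values were seen, moved differently: Nfe2l2, which encodes NRF2 itself, fell at MI (log2 difference -0.86, adjusted p = 0.0446), its target Slc7a11 fell at MII (-0.86, 0.0132), and Nqo1, Gclc and Txnrd1 passed at no stage. The receptor gene Tax1bp1 also fell at MII (-0.68, 0.0103). Atg13 (1.40 ± 0.0754 FPKM in KO and 2.97 ± 0.861 FPKM in WT, 0.0291) and Atg4b (5.31 ± 1.51 FPKM in KO and 9.86 ± 3.63 FPKM in WT, 0.0428) fell at MI.

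**Figure D5:**
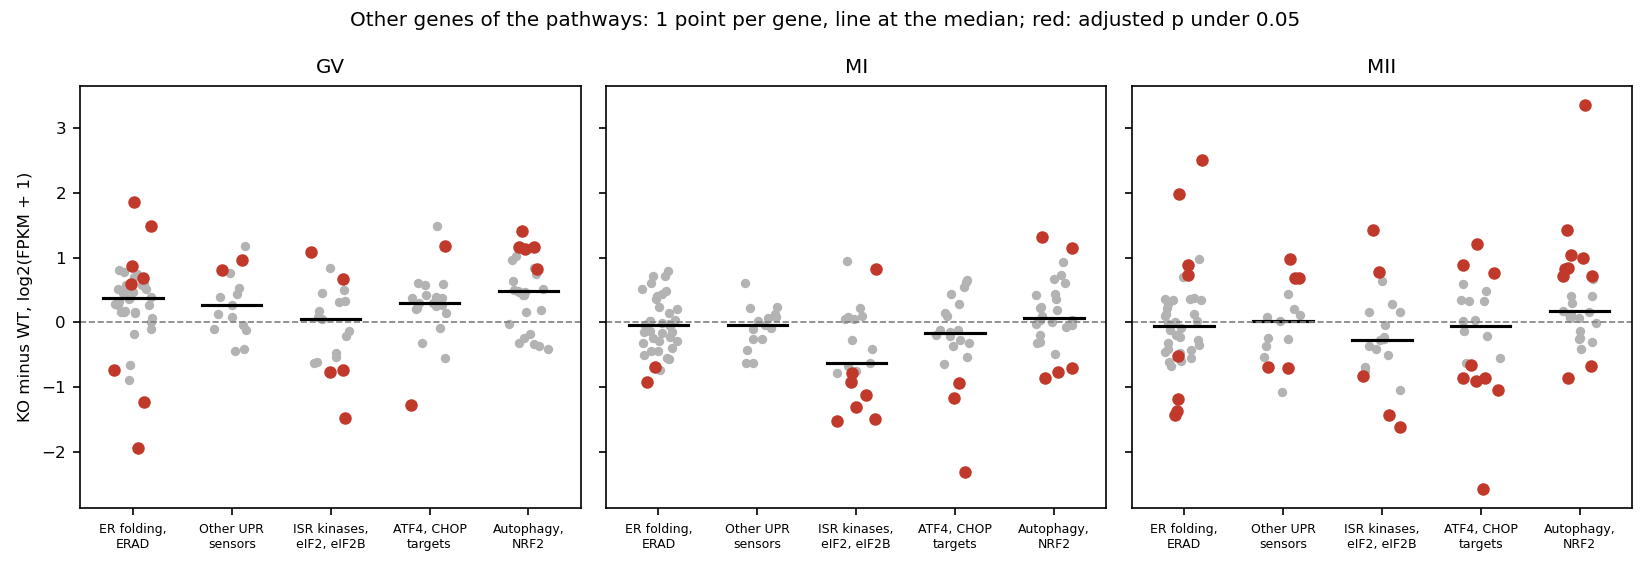
Difference KO minus WT in log2(FPKM + 1) (vertical axis) of each tested gene of the 5 lists, by stage, with a line at each list's median and red points for an adjusted p under 0.05. Calls in both directions stand in most lists, and Map1lc3a at 3.36 is the highest point at MII.

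The members' profiles over the 18 libraries fell into different company. These correlations of log2(FPKM + 1) pool stages and genotypes, describe these libraries only, and carry no test. Hspa5 followed Calr and Sqstm1 (Pearson r of 0.76 each) and Atf4 (0.70) more closely than its fellow chaperone gene Hsp90b1 (0.28). Hsp90b1 followed the sensors Atf6 (0.81) and Ern1 (0.59), and Ern1 ran against Sqstm1 (-0.77). Over the whole table the profiles most like that of Hspa5 were those of Vrtn (0.967), the cytosolic chaperone gene Hsph1 (0.956) and the chaperonin subunit gene Cct7 (0.945). Sqstm1 was closest to Armc1 (0.954), the mitochondrial unfoldase gene Clpx (0.910) and another chaperonin subunit gene, Cct4 (0.897). Ddit3 was closest to the ribosomal protein genes Rpl36a (0.984), Rps24 (0.978) and Rpl36 (0.977). Ern1 was closest to Atp13a3 (0.979), Nin (0.976) and Map4k5 (0.968), and Atf6 to Sin3a (0.983), Cdc42bpb (0.977) and Tiam1 (0.971). Atf4 had no profile as close, with Tsnax (0.895), Xrcc1 (0.866) and Gmds (0.858) first. Calr was closest to Ap1b1 (0.966), Tut1 (0.944) and Ncoa5 (0.934), and Hsp90b1 to Zkscan16 (0.935), Anks4b (0.913) and Bptf (0.901).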

How the data were processed

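RNA from 18 libraries of 15 oocytes was amplified by Smart-seq2 from oligo(dT) priming and sequenced, per the labels' protocols. The authors deposited FPKM values for 27874 genes. The submitters' processing notes list mm10 and DESeq2 1.38.3, with no step attached to either. How reads were aligned, counted and annotated, and whether strand was used, is not given in the sources used here. Of the gene identifiers, 27829 matched GENCODE vM21 and 45 did not. The members and gene lists were chosen with earlier results of these data known. Multiplied by exon length, 92.4% to 93.2% of a library's nonzero FPKM values were whole multiples of 1 read within 0.05, and reads were recovered from that step. PCR reads are not independent molecules, so such depths describe counting error alone.

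The 10320 genes that reached 1 FPKM in 3 or more libraries were tested. A limma model (version 3.58.1, R 4.3.3) of log2(FPKM + 1) held the 6 group means of all libraries, with an intensity trend of the variance and 12 residual degrees of freedom. Two-sided p-values were adjusted by Benjamini-Hochberg over all tested genes within a comparison, at 0.05; the script was checked on simulated data. Named genes were the 10 members, Lsm14b, of each list the 4 genes of smallest p among those called in each comparison of KO with WT, and the 3 best-correlated genes per member with a mean of at least 5 FPKM, without predicted genes. Ratios within libraries were compared by exact permutation tests on their logarithms. Listed symbols not in the table were not analysed here. Promoter windows came from RefSeq (GRCm38.p6). Tables used Python 3.11.15, pandas 2.3.3, numpy 2.4.6 and matplotlib 3.10.9. Alternatives were 2 other pseudocounts, 2 other filters, 3 other scalings, the compared groups alone, a replicate block, voom on recovered reads, and each library left out.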

Additional observations from a re-analysis of the deposited data

How the results depend on the processing

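Counts below are of the 8 tested members or of all tested genes past the threshold, and the cause of each change was not tested beyond the construction of the alternative. In KO against WT at MII, 4 members were called in every fit without 1 library. Fitting only the groups compared, with fewer residual degrees of freedom, gave 1 member and 302 genes at GV, 1 member from GV to MI in WT, 0 members and 414 genes from GV to MI in KO, 1 member and 2432 genes from GV to MII in KO, and 1 gene for the genotype difference to MI. A filter of 5 FPKM, which tests fewer genes, gave 1427 genes at GV, 1157 at MI, 3925 from GV to MII in WT, 2546 from GV to MII in KO, 1 member from GV to MI in WT, 4 genes for the difference to MI and 1 member for that to MII. Without a filter there were 195 genes from GV to MI in WT, 1 member from GV to MII in KO, 14 genes for the difference to MI and 268 for that to MII. A pseudocount of 0.1 gave 302 genes from GV to MI in WT, 5 genes for the difference to MI and 1 member for that to MII, and a pseudocount of 5 gave 4 genes for the difference to MI. Median-of-ratios scaling gave 849 genes from GV to MI in WT, 3 members from GV to MI in KO, and 5 and 1162 genes for the differences to MI and MII. Quantile normalization gave 821 genes from GV to MI in WT, 3 members from GV to MI in KO, 5 and 1026 genes for the differences, and 1 member for that to MII. TPM and voom each also gave 1 member there, Hsp90b1. At GV, 1373 genes were higher and 773 lower in the deposited values, 1086 and 1442 with median-of-ratios scaling, and 1380 and 1347 with quantile normalization; at MI the counts were 375 and 1411, 874 and 1154, and 1068 and 1192. The median log2 difference of all tested genes was 0.174, -0.043 and 0.02 at GV and -0.132, 0.016 and 0.035 at MI under these 3 scalings.

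Leaving out 1 library at a time gave 3 to 7 members and 900 to 4130 genes at GV, 1 to 2 members and 1074 to 2284 genes at MI, 0 to 2 members and 40 to 1438 genes from GV to MI in WT, 1 to 3 members and 791 to 1912 genes from GV to MI in KO, 1 to 4 members from GV to MII in KO, 0 to 1 member and 4 to 719 genes for the difference to MI, and 0 to 3 members and 215 to 2823 genes for that to MII.

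Of the alternative values of the members' log2 changes, 1919 kept direction and side of the threshold, 36 gained and 20 lost a call, and 41 turned direction, none of them a change that had been called. Under median-of-ratios scaling these were, from GV to MI in WT, Hspa5 (-0.12), Calr (-0.17) and Sqstm1 (-0.32, and -0.28 with quantile normalization), Hsp90b1 from GV to MI in KO (0.06, and 0.02 with quantile normalization) and from GV to MII in KO (0.05), Hspa5 from GV to MII in WT (-0.07), Calr in the differences to MI (0.03) and MII (0.14), and Atf6 in the difference to MI (0.09, and 0.04 with quantile normalization). Ern1 in the difference to MI turned with a pseudocount of 5 (-0.05) and with TPM (-0.00). Without 1 library the ranges that crossed zero were, for Hsp90b1, -0.07 to 0.20 in KO against WT at MI, -0.36 to 0.25 from GV to MI in KO and -0.49 to 0.13 from GV to MII in KO; for Hspa5, -0.87 to 0.16 and -0.90 to 0.14 for the same changes in KO, -0.17 to 0.19 from GV to MII in WT and -0.94 to 0.09 in the difference to MII; for Calr, -0.83 to 0.32 and -0.03 to 0.36 from GV to MI in KO and WT, and -1.05 to 0.09 and -0.77 to 0.37 in the differences to MI and MII; for Sqstm1, -0.12 to 0.20 from GV to MI in WT and -0.04 to 0.52 in the difference to MII; for Atf4, -0.02 to 0.52 from GV to MII in KO; and for Ern1, -0.54 to 0.33 in the difference to MI.

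Of 51 calls of other named genes, 22 held in every alternative. Of their 1417 alternative values 176 lost the call, most often for Atg4b at MI (18 of 28), Aars at MII (16 of 28) and Dnajc3, Eif2b3 and Map3k5 at GV (14 of 28 each).

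Replicate numbers were not shown to mark pairs. Of 45 pairs of libraries with the same number, 15 had deviations correlated over 0.1 (median -0.05, range -0.522 to 0.42). Of 90 pairs with other numbers, 33 did (median 0.048, range -0.442 to 0.574). Of 18 libraries, 3 correlated best with their own number. Deviations from means of 3 libraries depend on each other, so this check cannot exclude pairing. A replicate block gave 4, 2 and 4 members at GV, MI and MII and 2040 genes in place of 2146 at GV, and changed no count of members. Library quality weights, added after seeing the data, did not converge and were not used. Eif2ak3 and Xbp1 had at most 88 and 60 reads, which limits their comparison.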
